A study of Caenorhabditis elegans with 18 samples.

Results

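The genes described here encode stress-response transcription factors of the nematode Caenorhabditis elegans, with 1 regulator that binds such a factor. They were 10 genes chosen by name: pqm-1, hsf-1, hsb-1, skn-1, hlh-30, atfs-1, xbp-1, hif-1, zip-2 and elt-2. Their rows were found by matching RefSeq transcript identifiers to the RefSeq annotation WBcel235. Of the 10 genes, 8 had a row, with 21 transcript rows in all, out of 39798 genes and 50755 rows in the table. hsb-1 and zip-2 had no matching row and are not analysed here. Each gene was represented by its row with the highest mean count.

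RNA was sequenced from whole day-1 adult worms of 3 strains, synchronised as larvae and fed E. coli OP50-1. The pqm-1 strain (RB711) carries the allele ok485, which the labels call a null, the daf-16 strain (CF1038) carries mu86, and N2 Bristol is the strain without either allele. Each strain was sampled after 1 h at 35 °C followed by 2 h of recovery at 20 °C, and also at 20 °C without heat, which gives 6 groups and 18 samples. Each mutant is a single line, so the allele and the rest of that strain's background cannot be told apart. The comparisons rest on the 12 libraries whose columns are named replicate 2 and 3, 2 per group. The first value column carries the name of a sample but holds lengths. The header names may therefore all stand 1 place too early, and only these 12 libraries fall in the same group either way.

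As background, these factors cover the main cellular stress pathways of the worm. PQM-1 is a zinc finger protein that enters intestinal nuclei when the FOXO factor DAF-16 is outside them, and is linked to the class II genes of insulin signalling. HSF-1 drives chaperone genes and is held back by HSB-1. SKN-1, related to mammalian Nrf proteins, drives detoxification genes, and HLH-30, related to mammalian TFEB, drives autophagy and lipase genes. ATFS-1 serves the mitochondrial unfolded protein response, XBP-1 that of the endoplasmic reticulum, HIF-1 the response to low oxygen and hydrogen sulfide, and ZIP-2 the response to translation block by pathogens. ELT-2 is the GATA factor that maintains intestinal expression. Several are controlled mainly after transcription, HSF-1 by trimer formation, SKN-1 and HIF-1 by degradation, ATFS-1 by mitochondrial import and XBP-1 by splicing of its mRNA, so mRNA level and activity are separate quantities.

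Gene-level totals were between 18650462 and 33399558 counts in the 12 libraries. Levels are given below as CPM, counts scaled to a fixed total over the tested genes, with TMM factors that correct for differences in library composition. Differences were tested with edgeR's quasi-likelihood test over 14278 genes, and a gene is called where its Benjamini-Hochberg adjusted p is under 0.05. Each SE is the absolute log2 fold change divided by the square root of that test's F statistic. The labels name the replicates as biological without saying how they were separated, so p-values measure the spread between these samples. In whole worms, fewer cells of a type and less RNA per cell cannot be told apart. Markers of intestine (8 of 8 listed genes with a row), oocyte and eggshell (10 of 10), sperm (7 of 8) and muscle (4 of 5) were all detected, with none of these genes at 0 in every library.

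All 8 factors were expressed in each of the 12 libraries. Scaled by the row's length, xbp-1 was the most abundant, at 221 CPM per kilobase (median of 12 libraries, range 186 to 269). hif-1 followed at 92.4 CPM per kilobase (83.2 to 104), skn-1 at 65.7 (59.9 to 75.1) and hlh-30 at 45.6 (34.6 to 58.3). The ranges of these 4 genes did not overlap each other. Below them the ranges of neighbours overlapped, with medians of 38.7 for atfs-1, 30.5 for hsf-1, 29.5 for pqm-1 and 22.6 CPM per kilobase for elt-2. The genes differed in how much their level varied over the libraries. The highest library held 6.20 times the CPM of the lowest for pqm-1, 2.89 times for elt-2, 1.69 times for hlh-30, 1.63 times for atfs-1 and between 1.25 and 1.45 times for hif-1, skn-1, hsf-1 and xbp-1. pqm-1 and elt-2 were also the genes with the fewest reads, with 212 to 1121 counts for pqm-1 and 256 to 1386 counts for elt-2.

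**Figure D1:**
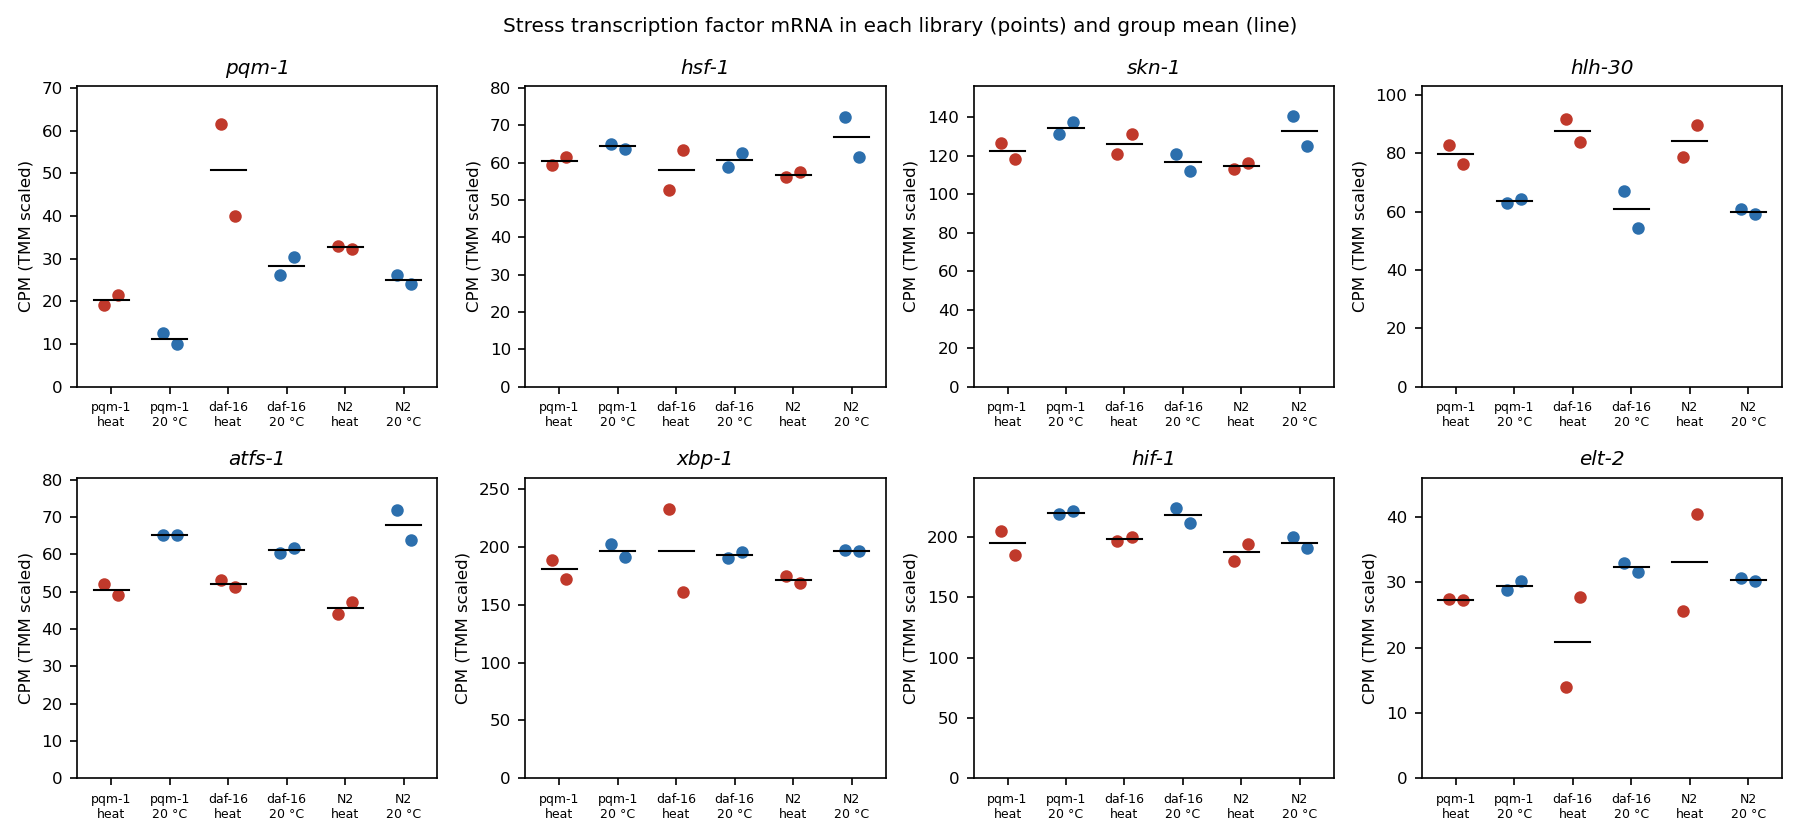
TMM-scaled CPM (vertical axes, linear, from 0) of the 8 measured stress transcription factors in each of the 12 libraries. Points are libraries (red, after heat; blue, 20 °C) and lines are group means of 2. pqm-1 ranges from 9.92 to 61.5 CPM, with the 4 libraries of the pqm-1 strain below all others, while N2 and daf-16 libraries overlap. hlh-30 is higher and atfs-1 lower in the heated libraries, elt-2 spreads in the heated daf-16 and N2 pairs, and xbp-1 in the heated daf-16 pair.

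Heat changed the mRNA of a minority of the factors within a strain. In the pqm-1 strain 3 of 8 members were called (pqm-1 and hlh-30 higher, atfs-1 lower), where 25.2% of all tested genes were called (1786 higher, 1805 lower). The same 3 members were called in the same directions in the daf-16 strain, against 33.1% of all genes (2360 higher, 2363 lower). In N2 2 of 8 were called (hlh-30 higher, atfs-1 lower), against 34.7% of all genes (2401 higher, 2549 lower). For the average of the 3 strains 4 of 8 were called, pqm-1 and hlh-30 higher and atfs-1 and hif-1 lower, against 53.8% of all genes (3915 higher, 3766 lower). These shares are near the background, so being called for heat did not set the factors apart. All heat calls, here and below, rest on leaving out the replicate 1 columns: with all 17 count columns grouped by header name, edgeR called 0 genes for heat in each strain and on average. Before adjustment, 234 genes in the pqm-1 strain, 872 in the daf-16 strain, 660 in N2 and 1526 on average were under a p of 0.05 in that grouping. If the header names stand 1 place too early, that grouping mixes libraries of different groups and cannot judge the heat calls. Whether they do was not tested. The median log2 fold change of the 8 members was -0.12 in the pqm-1 strain, -0.02 in the daf-16 strain and -0.13 in N2, beside 0.01, 0.03 and 0.02 over all tested genes.

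**Figure D2:**
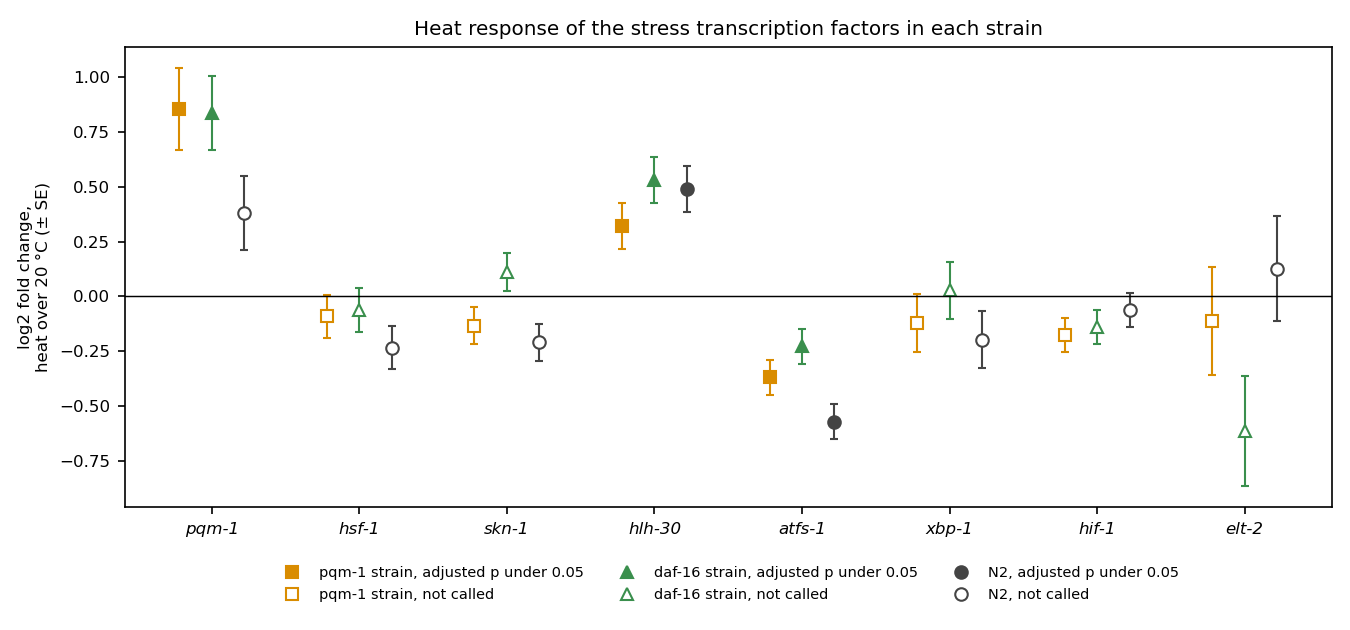
Log2 fold change, heat over 20 °C (vertical axis), of each factor in the pqm-1 strain (squares), the daf-16 strain (triangles) and N2 (circles). Bars are 1 SE, derived from edgeR's F statistic, and filled symbols have an adjusted p under 0.05. hlh-30 lies above 0 and atfs-1 below 0 in all 3 strains, and pqm-1 reaches 0.85 (pqm-1 strain) and 0.84 (daf-16 strain).

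pqm-1 mRNA was still present in the strain that carries the pqm-1 allele, at a lower level. After heat the pqm-1 libraries held 19.2 and 21.5 CPM of pqm-1, against 33.0 and 32.4 CPM in N2. At 20 °C the pqm-1 libraries held 12.55 and 9.92 CPM, against 26.1 and 24.1 CPM in N2. All 4 libraries of the pqm-1 strain thus lay below all 4 N2 libraries, at 62.2% of the N2 mean after heat and 44.7% at 20 °C. The single pqm-1 row is 888 bases long, and the labels do not say which bases ok485 removes. Whether the residual counts come from outside the deleted part or have another source was not tested. Averaged over both temperatures the log2 fold change was -0.92 (SE 0.13, adjusted p 0.00625), and pqm-1 was the 1 member called of 8, where 0.672% of all genes were called. Taken at each temperature no member was called, where 0.28% of genes were called after heat and 0.063% at 20 °C. The values for pqm-1 itself were -0.69 after heat (SE 0.17, adjusted p 0.18, unadjusted 0.00181) and -1.16 at 20 °C (SE 0.19, adjusted p 0.0586, unadjusted 4.23e-05). DESeq2 called both (adjusted p 0.0281 and 1.09e-06), and so did edgeR without either heated daf-16 library (adjusted p 0.0201 and 0.0198 after heat, 0.00177 and 0.0017 at 20 °C, without replicate 2 and replicate 3).

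Heat raised pqm-1 in both mutant strains. In the pqm-1 strain the 4 values above give a log2 fold change of 0.85 with heat (SE 0.19, adjusted p 0.00555). In the daf-16 strain pqm-1 stood at 61.5 and 40.1 CPM after heat and at 26.3 and 30.5 CPM at 20 °C, which gives 0.84 on the log2 scale (SE 0.17, adjusted p 0.00255). This value was 0.50 without the heated daf-16 replicate 2 and 1.11 without the heated replicate 3, and was called in both cases. In N2 the heated libraries also lay above those at 20 °C, but the change of 0.38 (SE 0.17) was not called (adjusted p 0.103). It was called without either heated daf-16 library (adjusted p 0.0195 without replicate 2, 0.0193 without replicate 3). Without the 20 °C pqm-1 replicate 3 the change in the pqm-1 strain was 0.69 and no longer called (adjusted p 0.0682). The difference in heat response did not pass between the pqm-1 strain and N2 (0.47, SE 0.25, adjusted p 0.661) or between the daf-16 strain and N2 (0.46, SE 0.24, adjusted p 0.39). A stronger response in the mutants is therefore not shown.

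The highest pqm-1 values of all were those of the heated daf-16 libraries. Against N2 after heat the log2 fold change in the daf-16 strain was 0.63 (SE 0.17, unadjusted p 0.00246), which edgeR did not call (adjusted p 0.0959) and DESeq2 did (0.63, adjusted p 0.0296). Both heated daf-16 libraries lay above both heated N2 libraries. The value depended on which of them was used, at 0.29 and not called without replicate 2, and 0.91 and called without replicate 3 (adjusted p 0.00545). At 20 °C the daf-16 libraries (26.3 and 30.5 CPM) lay above those of N2 by 0.18 (SE 0.17, adjusted p 0.619). No member was called for the daf-16 strain against N2, where 1.09% of genes were called after heat, 2.49% at 20 °C and 4.54% averaged over both temperatures.

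Set against the daf-16 strain, the pqm-1 strain had much less pqm-1 mRNA at both temperatures. The log2 fold change was -1.32 after heat (SE 0.17, adjusted p 0.00313) and -1.34 at 20 °C (SE 0.18, adjusted p 0.00882). pqm-1 was the 1 of 8 members called in each, against 1.11% of all genes after heat and 0.245% at 20 °C. The call after heat was lost without the heated pqm-1 replicate 2 (-1.24, adjusted p 0.0542). The call at 20 °C was lost without the 20 °C daf-16 replicate 3 (-1.23, adjusted p 0.138) or the 20 °C pqm-1 replicate 3 (-1.18, adjusted p 0.172). The heat responses of the mutants differed by 0.02 (SE 0.25, adjusted p 0.995).

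Genes linked to PQM-1 and DAF-16 were described from 2 lists, the class II genes, which loss of DAF-16 tends to raise, and the class I genes, which DAF-16 activates. Of 11 class II genes tested, heat raised 3 and lowered 3 in the pqm-1 strain, raised 4 and lowered 5 in the daf-16 strain, and raised 2 and lowered 3 in N2, where 25.2%, 33.1% and 34.7% of all genes were called in that order of strains. Without the 20 °C pqm-1 replicate 3 the pqm-1 strain had 1 higher and 2 lower, and without a filter N2 had 3 higher and 5 lower. dod-22 rose in all 3 strains (log2 fold change 0.82, 1.36 and 0.70 in the order pqm-1, daf-16, N2), and dod-17 fell in all 3 (-1.03, -1.32 and -1.21). In the pqm-1 strain against N2 after heat, 2 of the 11 were called, both higher: dod-21 (3.58, SE 0.19, adjusted p 4.05e-06) and dod-22 (0.91, SE 0.14, adjusted p 0.0163). dod-21 stood at 12.9 ± 0.723 CPM in the heated pqm-1 libraries and 1.06 ± 0.149 CPM in those of N2 (mean ± SD, n = 2). In the daf-16 strain against the same N2 libraries after heat, 4 of the 11 were called, all higher: dod-21 (1.59), dod-22 (1.27), dod-24 (0.86) and dod-17 (0.55). At 20 °C dod-21 was the 1 called in the pqm-1 strain (3.16), and 3 were called in the daf-16 strain, dod-17 (0.66), dod-21 (1.42) and dod-24 (0.84), all higher than in N2. Of 13 class I genes tested, heat raised 6 and lowered 1 in the pqm-1 strain, and raised 3 and lowered 1 in the daf-16 strain. In N2 it raised 6 and lowered none, beside the 25.2%, 33.1% and 34.7% of all genes given above for heat. The daf-16 strain had 1 higher and none lower without its 20 °C replicate 2, and 5 higher and 3 lower without a filter, and the pqm-1 strain had 4 higher and none lower without its heated replicate 2. Between strains, 4 of the 13 were called lower in daf-16 than in N2 worms after heat and 1 at 20 °C, with none higher. That compares with 1.09% and 2.49% of all genes. In pqm-1 against N2 worms none of the 13 was called at either temperature. The metallothionein gene mtl-1 rose in the pqm-1 strain (1.99, SE 0.45, adjusted p 0.00648) and in N2 (3.97, SE 0.40, adjusted p 2.86e-05), while its change in the daf-16 strain was 1.75 (SE 0.75, adjusted p 0.0959). Its mean level was 1.89 CPM after heat and 0.47 CPM at 20 °C in the pqm-1 strain, and 5.78 and 0.36 CPM in N2. In the daf-16 strain it was 0.49 and 0.14 CPM, so low that the lack of a call there says little. No class I gene was called for a difference in heat response between strains.

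hsf-1 mRNA did not change past the threshold in any strain. It stood at 59.4 and 61.4 CPM after heat in the pqm-1 strain, against 65.0 and 63.7 CPM at 20 °C. Its daf-16 values were 52.7 and 63.4 CPM after heat, against 58.8 and 62.6 CPM at 20 °C. In N2 it stood at 56.1 and 57.4 CPM after heat, against 72.2 and 61.5 CPM at 20 °C. Heated and unheated values overlapped in the daf-16 strain but not in the pqm-1 strain or N2. The log2 fold changes were -0.09 (SE 0.10), -0.06 (SE 0.10) and -0.23 (SE 0.10) in that order, with adjusted p 0.553, 0.672 and 0.0858. The N2 value passed without the 20 °C N2 replicate 3 (-0.35, adjusted p 0.0373), and reached an adjusted p of 0.05 without the heated daf-16 replicate 3 (-0.23).

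The genes that HSF-1 drives moved in a different way from hsf-1 itself. Of 15 tested HSF-1 targets, 13 rose with heat in each strain and none fell. Over all tested genes, 25.2%, 33.1% and 34.7% were called in either direction in the pqm-1 strain, the daf-16 strain and N2. hsp-70, an inducible cytosolic chaperone, rose by 6.71 on the log2 scale in the pqm-1 strain (SE 0.81), 7.69 in the daf-16 strain (SE 0.81) and 6.59 in N2 (SE 0.82), with adjusted p 0.000114, 2.76e-05 and 0.000119. The targets that were not called were hsp-12.3 and sip-1, small heat shock genes with log2 fold changes from -0.63 to 0.15. Near-identical copies (hsp-16.11 and hsp-16.1, hsp-16.49 and hsp-16.48, F44E5.5 and F44E5.4) gave the same fold changes, so the 13 are fewer separate measurements. Among partners and co-chaperones of HSF-1, 4 of 5 rose in pqm-1 worms and all 5 in daf-16 and N2 worms. The N2 count was 3 without either 20 °C N2 library. Of these 5, hsp-1, hsp-90 and hsp-110 are also among the 15 targets, so the counts of targets and partners are not separate. hsp-110 (0.77, 1.09 and 0.88), bag-1 (0.75, 0.70 and 0.63), hsp-90 (0.44, 0.66 and 0.46) and hsp-1 (0.25, 0.50 and 0.28) were called in all 3 strains. ddl-2, whose product is known to form a complex with HSF-1, was called in the daf-16 strain (0.59) and N2 (0.41) and stood at 0.17 in the pqm-1 strain.

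skn-1 mRNA was not called for heat in any strain either. It stood at 126.6 and 118.3 CPM after heat in the pqm-1 strain, against 131.2 and 137.4 CPM at 20 °C. In the daf-16 strain it stood at 120.6 and 131.2 CPM after heat, against 121.0 and 112.1 CPM at 20 °C. In N2 it stood at 113.1 and 116.4 CPM after heat, against 140.5 and 124.8 CPM at 20 °C. The heated libraries lay below the others in the pqm-1 strain and N2, and overlapped them in the daf-16 strain. The log2 fold changes were -0.13, 0.11 and -0.21 (SE 0.08 each), with adjusted p 0.284, 0.343 and 0.0737, and the N2 value passed without the 20 °C N2 replicate 3 (-0.29, adjusted p 0.0446). The heat response in the daf-16 strain minus that in N2 was 0.32 (SE 0.12, unadjusted p 0.0201) and did not pass over all genes (adjusted p 0.268).

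skn-1 has 2 rows in the table, of 1872 and 933 bases, and the balance between them moved with heat. Isoform rows repeat the reads they share, so the balance is a description without a test. The count of the 933-base row was 53.5% ± 0.754 of that of the 1872-base row after heat and 59.7% ± 0.418 at 20 °C in the pqm-1 strain (mean ± SD, n = 2 each). In the daf-16 strain it was 53.4% ± 1.51 after heat and 58.8% ± 0.799 at 20 °C. In N2 it was 51.9% ± 3.58 after heat and 57.2% ± 1.97 at 20 °C. The 6 heated libraries lay between 49.3 and 54.5% and the 6 unheated ones between 55.8 and 59.99%, so the temperatures did not overlap while the strains did. In CPM the shorter row stood between 59.3 and 68.7 after heat and between 64.5 and 80.4 at 20 °C. The reads by which the longer row exceeded it stood between 53.7 and 62.4 CPM after heat and between 44.1 and 60.1 CPM at 20 °C, and both of these ranges overlapped. The annotation places 4 other genes over skn-1, including clec-178 and csn-5, and the table gives no strand, so their part in these counts was not tested. No such separation appeared in the other members with several distinct rows. How common it is among all genes with several rows was not examined. The 846-base row of atfs-1 held 64.4% ± 1.66 of the longest row's count after heat and 64.8% ± 1.70 at 20 °C, and the 1512-base row of hif-1 held 78.0% ± 1.38 after heat and 78.5% ± 0.610 at 20 °C (n = 6 each). For hlh-30 the 5 shorter rows held between 88.5 and 99.9% of the longest in every library.

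**Figure D3:**
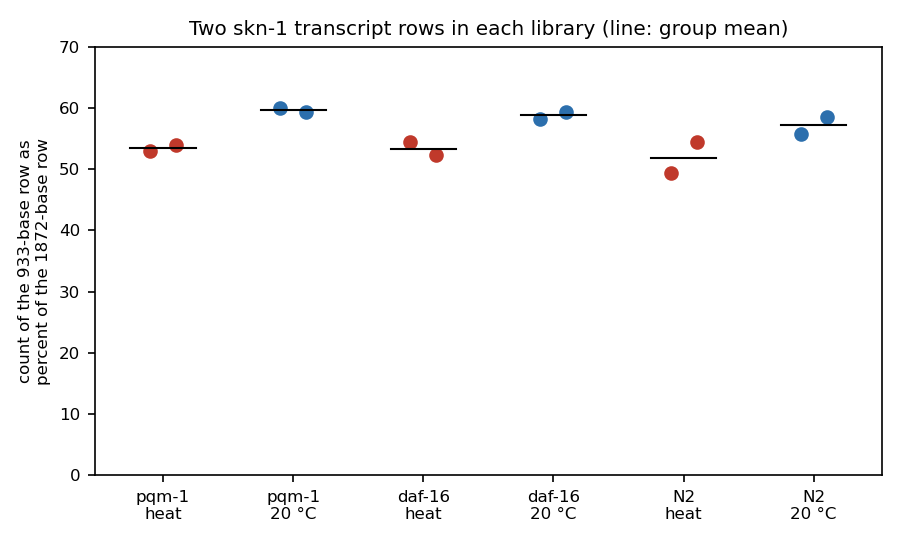
Count of the 933-base skn-1 row as a percentage of the 1872-base row (vertical axis, from 0) in each of the 12 libraries, by group. Points are libraries (red, after heat; blue, 20 °C) and lines are means of 2. The 6 heated libraries lie at 49.3 to 54.5% and the 6 unheated libraries at 55.8 to 59.99%.

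Around skn-1, the p38 kinase gene pmk-1, whose product activates SKN-1, rose with heat in every strain (0.53, 0.53 and 0.65 for pqm-1, daf-16 and N2), as did its upstream kinase gene sek-1 (0.25, 0.28 and 0.32). wdr-23, whose product marks SKN-1 for degradation, rose in both mutants (0.24 and 0.29), and its change in N2 was 0.17 (not called). In all, 3 of 5 tested regulators rose and 1 fell in the pqm-1 strain, 3 rose and 1 fell in the daf-16 strain, and 2 rose and 2 fell in N2, beside 25.2%, 33.1% and 34.7% of all genes called in either direction. These counts were fragile: 1 or 2 regulators were called in the pqm-1 strain on leaving out any of its 4 libraries, with 2 by DESeq2 or without a filter. In the daf-16 strain 1 or 2 were called without its 20 °C replicate 2 or 3 or its heated replicate 2, without a filter or with only the groups compared, and in N2 2 without its 20 °C replicate 2. Of 11 tested SKN-1 targets, none rose and 3 fell in the pqm-1 strain, 1 rose and 2 fell in the daf-16 strain, and 1 rose and 3 fell in N2, which is near the shares of all genes just given. The pqm-1 count was 1 without the 20 °C pqm-1 replicate 3 and 5 with only the groups compared, and the daf-16 count was 6 without a filter. gst-4, a glutathione S-transferase gene used as a reporter of SKN-1, fell by 0.42, 1.33 and 0.77 on the log2 scale, and gst-10 fell by 0.66, 1.23 and 0.98. gcs-1, the rate-limiting enzyme gene of glutathione synthesis, rose in N2 (0.34), with values of 0.14 and 0.15 in the mutants. With scaling to library size alone, 3 targets rose and 3 fell in N2. Between heated groups, gst-4 was lower in daf-16 than in N2 worms (-0.62, SE 0.12, adjusted p 0.0348), with 8.50 ± 0.533 CPM in the daf-16 libraries and 13.1 ± 0.193 CPM in those of N2.

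hlh-30 rose with heat in every strain. It stood at 82.7 and 76.4 CPM after heat in the pqm-1 strain, against 63.1 and 64.4 CPM at 20 °C. Its daf-16 values were 91.8 and 83.8 CPM after heat, against 67.1 and 54.5 CPM at 20 °C. In N2 it stood at 78.7 and 89.7 CPM after heat, against 60.8 and 59.3 CPM at 20 °C. All 6 heated libraries lay above all 6 unheated ones. The log2 fold change was 0.32 in the pqm-1 strain (SE 0.10, adjusted p 0.0404), 0.53 in the daf-16 strain (SE 0.10, adjusted p 0.00219) and 0.49 in N2 (SE 0.10, adjusted p 0.00355). The average over the 3 strains was 0.45 (SE 0.06, adjusted p 5.81e-05). The call in the pqm-1 strain was lost when any 1 of its own 4 libraries was left out (0.26 to 0.37, adjusted p 0.0798 to 0.234) and without the 20 °C N2 replicate 2 (0.32, adjusted p 0.0515).

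Genes of autophagy and lysosomal lipid use, which HLH-30 is known to drive, were more often called higher than lower. Of 19 tested, 6 rose and 2 fell in the pqm-1 strain, 12 rose and 2 fell in the daf-16 strain, and 7 rose and 2 fell in N2, beside 25.2%, 33.1% and 34.7% of all genes called. The pqm-1 strain had 3 higher and 2 lower without either of its heated libraries. The autophagy receptor gene sqst-1 rose most, to 258.7 ± 5.75 CPM after heat against 74.1 ± 7.56 CPM at 20 °C in the pqm-1 strain, to 381.7 ± 142.8 against 67.2 ± 1.35 CPM in the daf-16 strain and to 255.4 ± 71.97 against 60.4 ± 3.31 CPM in N2. Its log2 fold changes were 1.80, 2.50 and 2.08 (SE 0.22, 0.23 and 0.23). lgg-1, which encodes the worm's ATG8 protein, rose by 0.86, 0.91 and 0.80, and atg-16.2 by 0.67, 0.58 and 0.64. The genes that fell in all 3 strains were the lysosomal lipase gene lipl-5 (-0.66, -1.18 and -0.90) and mxl-3, whose product is known to repress lipase genes (-0.89, -0.76 and -0.59). The lysosomal membrane gene lmp-1 (-0.24, -0.08 and -0.07) and the other lipase genes listed, lipl-1, lipl-2, lipl-3 and lipl-4, were called in no strain. Group means of lipl-1, lipl-2, lipl-3 and lipl-4 lay between 0.14 and 2.05 CPM, so low that the lack of a call says little about them.

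atfs-1 fell with heat in every strain. It stood at 52.2 and 49.03 CPM after heat in the pqm-1 strain, against 65.3 and 65.3 CPM at 20 °C. In the daf-16 strain it stood at 53.2 and 51.2 CPM after heat, against 60.4 and 61.8 CPM at 20 °C. In N2 it stood at 44.0 and 47.4 CPM after heat, against 71.9 and 64.0 CPM at 20 °C. All 6 heated libraries lay below all 6 unheated ones. The log2 fold change was -0.37 in the pqm-1 strain (SE 0.08, adjusted p 0.00521), -0.23 in the daf-16 strain (SE 0.08, adjusted p 0.0463) and -0.57 in N2 (SE 0.08, adjusted p 0.000257). The call in the daf-16 strain was lost with DESeq2 (adjusted p 0.0744), without a filter (adjusted p 0.0558), with only the groups compared (adjusted p 0.0781) and on leaving out any 1 library of the daf-16 or pqm-1 strain (-0.20 to -0.26, adjusted p 0.0611 to 0.171). That in the pqm-1 strain was lost without its heated replicate 3 (-0.33, adjusted p 0.0571). The response in the daf-16 strain minus that in N2 was 0.34 (SE 0.11, unadjusted p 0.0102) and did not pass over all genes (adjusted p 0.238). Of the 4 atfs-1 rows, 3 held the same counts in every library.

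Genes of the mitochondrial stress response were called at about the share of all genes. Of 8 tested, 1 rose and 1 fell in the pqm-1 strain, 2 rose and 1 fell in the daf-16 strain, and 1 rose and 2 fell in N2, beside 25.2%, 33.1% and 34.7% of all genes. On leaving out 1 library the counts ranged from 0 to 2 in the pqm-1 strain (0 without its 20 °C or its heated replicate 3), from 0 to 3 in the daf-16 strain (0 without its 20 °C replicate 3, 1 without either heated library) and from 1 to 3 in N2 (1 without replicate 2 of either group). dve-1, which encodes a transcription factor of the mitochondrial response, rose in all 3 (0.49, 0.68 and 0.93), and the mitochondrial chaperone gene hsp-60 fell in all 3 (-0.32, -0.22 and -0.29). ubl-5, whose product partners DVE-1, rose in the daf-16 strain (0.41), with values of 0.31 in the pqm-1 strain and 0.02 in N2.

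xbp-1, the most abundant of the factors per kilobase though below hif-1 in CPM, was not called for heat. It stood at 189.0 and 172.5 CPM after heat in the pqm-1 strain, against 202.0 and 191.1 CPM at 20 °C. Its daf-16 values were 232.6 and 160.7 CPM after heat, against 190.1 and 195.4 CPM at 20 °C. In N2 it stood at 174.7 and 168.6 CPM after heat, against 197.2 and 196.1 CPM at 20 °C. The heated daf-16 pair spanned both its own unheated values, and in the other strains the heated libraries lay lower without overlap. The log2 fold changes were -0.12, 0.03 and -0.20 (SE 0.13 each; adjusted p 0.549, 0.891 and 0.266). The value in the daf-16 strain turned to -0.26 (adjusted p 0.0598) without its heated replicate 2 and to 0.27 (adjusted p 0.0442) without replicate 3. Averaged over strains it was -0.10 (adjusted p 0.302), and -0.19 without the heated daf-16 replicate 2 (adjusted p 0.00466). The table has 1 xbp-1 row, of 864 bases, so spliced and unspliced xbp-1 mRNA were not separated.

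The endoplasmic reticulum stress genes rose in larger number than they fell. Of 19 tested, 8 rose and 1 fell in the pqm-1 strain, 12 rose and 1 fell in the daf-16 strain, and 12 rose and none fell in N2, beside 25.2%, 33.1% and 34.7% of all genes called in either direction. The pqm-1 strain had 2 higher and 1 lower without its heated replicate 2, and 4 higher and none lower without its 20 °C replicate 3. The daf-16 strain had 6 higher and none lower without its 20 °C replicate 3 or with only the groups compared, and 7 higher and 1 lower without its heated replicate 2. hsp-4, the inducible BiP chaperone gene, stood at 729.8 ± 4.11 CPM after heat against 287.2 ± 17.5 CPM at 20 °C in the pqm-1 strain, at 969.7 ± 358.8 against 300.8 ± 1.25 CPM in the daf-16 strain and at 672.2 ± 130.5 against 280.96 ± 1.43 CPM in N2. Its log2 fold changes were 1.35, 1.69 and 1.26 (SE 0.19 each). The choline kinase gene ckb-2 rose by 1.84, 2.14 and 1.81. Of the sensors, atf-6 rose in all 3 strains (0.48, 0.73 and 0.60), pek-1 in the daf-16 strain (1.03) and N2 (0.64), and ire-1, whose product splices xbp-1 mRNA, in the daf-16 strain (0.30). The co-chaperone gene dnj-20 fell in both mutants (-0.33 and -0.23). In daf-16 worms the BiP gene hsp-3 was higher than in N2 after heat (0.37, SE 0.08, adjusted p 0.0428) and at 20 °C (0.34, SE 0.08, adjusted p 0.0442). Markers of larval moulting also differed at 20 °C, with 3 of 5 called higher in daf-16 worms than in N2 worms (median log2 fold change 0.76) and a summed level of 1309 to 1780 CPM in daf-16 libraries and 868 to 969 CPM in those of N2. Of 3 hypodermis markers 2 were called higher there, while their summed level was 1591 to 2104 CPM in daf-16 libraries and 2167 to 2169 CPM in those of N2. That sum was mostly col-19, which was not called. At 20 °C col-19 stood at 1700 ± 414 CPM in daf-16 and 2097 ± 41.5 CPM in N2 worms (mean ± SD, TMM-scaled). None of these markers was called between heated daf-16 and N2 worms, or between pqm-1 and N2 worms at either temperature. The summed moulting level in pqm-1 libraries at 20 °C was still 1251 to 1451 CPM, above those of N2 (median log2 fold change 0.48). After heat it was 1026 to 1085 CPM, overlapping the 982 to 1051 CPM of N2. The part of these markers in the strain differences was not tested.

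hif-1 varied least of the 8 factors. It stood at 204.8 and 185.4 CPM after heat in the pqm-1 strain, against 219.1 and 221.5 CPM at 20 °C. In the daf-16 strain it stood at 196.5 and 200.1 CPM after heat, against 224.5 and 211.7 CPM at 20 °C. In N2 it stood at 180.3 and 194.6 CPM after heat, against 200.4 and 190.7 CPM at 20 °C. The heated libraries lay below the others in both mutants and overlapped them in N2. No strain was called on its own (-0.17, -0.14 and -0.06, SE 0.08 each; adjusted p 0.123, 0.198 and 0.577), while the average of -0.12 was (SE 0.04, adjusted p 0.0339). That call was lost with scaling to library size alone (-0.07, adjusted p 0.181) and in 7 of 12 fits that left out a library (-0.13 to -0.10, adjusted p 0.063 to 0.107); the 7 libraries were replicate 2 of every group other than heated pqm-1, and replicate 3 of both pqm-1 groups. Of 11 tested genes of the HIF-1 pathway, 2 rose and 4 fell in the pqm-1 strain, 1 rose and 5 fell in the daf-16 strain, and 1 rose and 4 fell in N2, beside 25.2%, 33.1% and 34.7% of all genes called. In the pqm-1 strain none rose and 3 fell with DESeq2, and none rose and 2 or 3 fell on leaving out any of its libraries, and in N2 1 rose and 2 fell without either 20 °C library. aha-1, which encodes the partner of HIF-1, rose in all 3 (0.35, 0.49 and 0.40). rhy-1, a regulator that HIF-1 also drives, fell in all 3 (-0.76, -0.85 and -0.61), as did the sulfur metabolism genes cysl-2 (-0.56, -0.88 and -0.55) and suox-1 (-0.72, -0.74 and -0.69).

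elt-2 was the factor whose heated replicates differed most. It stood at 27.4 and 27.3 CPM after heat in the pqm-1 strain, against 28.8 and 30.3 CPM at 20 °C. In the daf-16 strain it stood at 14.0 and 27.8 CPM after heat, against 33.0 and 31.6 CPM at 20 °C. In N2 it stood at 25.5 and 40.5 CPM after heat, against 30.7 and 30.2 CPM at 20 °C. The 6 unheated libraries lay within 28.8 to 33.0 CPM, and the heated ones spread on both sides of that range. The log2 fold changes were -0.11 (SE 0.25, adjusted p 0.793), -0.61 (SE 0.25, adjusted p 0.0798) and 0.13 (SE 0.24, adjusted p 0.711). For daf-16 the value was -0.22 and not called without the heated replicate 2, and -1.205 and called without the heated replicate 3 (adjusted p 0.0016). It was also called without either heated N2 library (-0.63 and -0.62, adjusted p 0.0404 and 0.0465). The N2 value turned to -0.25 without its heated replicate 3 (adjusted p 0.497). Against N2 after heat, elt-2 in the daf-16 strain was at -0.66 (SE 0.25, adjusted p 0.211), and at -1.25 without the heated daf-16 replicate 3 (adjusted p 0.013). It shrank to -0.26 without the heated daf-16 replicate 2 and to -0.28 without the heated N2 replicate 3, called in neither case.

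The heated libraries with extreme elt-2 were also those with extreme hsp-70. The hsp-70 level was 104.3 and 108.2 CPM in heated pqm-1 worms, 341.7 and 95.95 CPM in heated daf-16 worms and 136.1 and 40.8 CPM in heated N2 worms. The daf-16 library with 341.7 CPM of hsp-70 held the least elt-2 (14.0 CPM), the most pqm-1 (61.5 CPM) and the most xbp-1 (232.6 CPM). The N2 library with 40.8 CPM of hsp-70 held the most elt-2 (40.5 CPM). This is a description of 6 libraries, and the part of the strength of the heat response in these values was not tested.

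**Figure D4:**
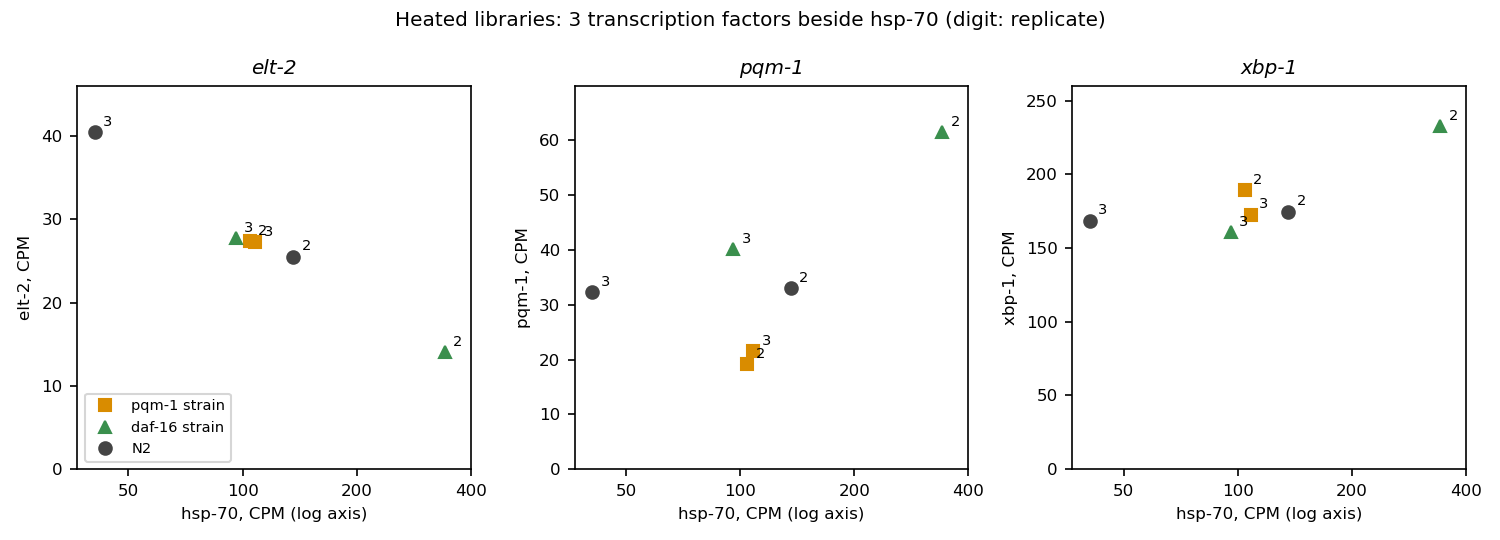
CPM of elt-2, pqm-1 and xbp-1 (vertical axes, from 0) against CPM of hsp-70 (horizontal axis, log scale) in the 6 heated libraries; squares are the pqm-1 strain, triangles the daf-16 strain and circles N2, with the replicate number beside each. The daf-16 replicate 2 library stands apart with 341.7 CPM of hsp-70, 14.0 CPM of elt-2 and 232.6 CPM of xbp-1.

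Intestinal genes, many of which ELT-2 is known to drive, fell more often than they rose with heat. Of 15 tested, 2 rose and 8 fell in the pqm-1 strain, none rose and 9 fell in the daf-16 strain, and 1 rose and 8 fell in N2, beside 25.2%, 33.1% and 34.7% of all genes called in either direction. The peptide transporter gene pept-1 fell by 2.00, 1.73 and 1.53 on the log2 scale (SE 0.14 each), the metallothionein gene mtl-2 by 1.21, 1.38 and 1.31 (SE 0.08 each), and the microvillar actin gene act-5 by 0.96, 0.96 and 1.11. The summed level of the 8 intestine markers, several of which are on this list, was 13077 to 14098 CPM after heat and 20814 to 24655 CPM at 20 °C in the pqm-1 strain, 13172 to 17202 and 22572 to 23208 CPM in the daf-16 strain, and 14028 to 14805 and 22881 to 28010 CPM in N2, scaled to library size. Of these markers 5, 6 and 6 were called lower in the same order of strains. Most of the summed intestine level came from the yolk genes vit-2 and vit-6. In N2 they stood at 5188 and 4514 CPM after heat and at 9493 and 10773 CPM at 20 °C (TMM-scaled group means). The sum therefore follows these 2 genes more than the other intestine markers. Markers of other tissues moved with heat too. Of 10 oocyte and eggshell markers 6, 1 and 9 were called lower in the pqm-1 strain, the daf-16 strain and N2, and of 7 sperm markers 3, 4 and 3 were lower, with 1 higher in N2. Of 4 muscle markers none, 2 and 3 were called higher. Summed oocyte and eggshell markers stood at 2151 to 2406 CPM after heat and 3032 to 3054 CPM at 20 °C in the pqm-1 strain, at 1789 to 2668 and 2345 to 2814 CPM in the daf-16 strain, and at 2112 to 2212 and 3509 to 3988 CPM in N2. The part of elt-2 mRNA and of the amount of RNA from each tissue in these values was not tested. Between heated groups, the esterase gene ges-1 was lower in daf-16 than in N2 worms (-0.72, SE 0.11, adjusted p 0.0102), at 23.6 ± 1.67 CPM in the daf-16 libraries and 38.7 ± 6.46 CPM in those of N2.

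zip-2 itself was not analysed here, but 6 genes of its list were tested. None rose and 1 fell in the pqm-1 strain, 1 rose and 2 fell in the daf-16 strain, and 1 rose and 1 fell in N2, with 1 to 2, 1 to 3 and 1 to 2 called on leaving out 1 library and 5 called in the pqm-1 strain with only the groups compared. Over all tested genes, 25.2%, 33.1% and 34.7% were called in the same order of strains, so these counts do not set the 6 genes apart. irg-3 fell in all 3 strains (-1.09, -1.35 and -1.44, SE 0.13 each). irg-1, the infection response gene used to report ZIP-2, was higher at 20 °C in both mutants. It stood at 8.33 ± 0.608 CPM in the pqm-1 strain, against 3.00 ± 0.00930 CPM in N2 (log2 fold change 1.47, SE 0.20, adjusted p 0.0167). In the daf-16 strain it stood at 6.09 ± 0.415 CPM (1.02, SE 0.21, adjusted p 0.0307, against the same N2 libraries). irg-4 was higher in daf-16 than in N2 worms, both after heat (0.81, SE 0.14, adjusted p 0.0157) and at 20 °C (0.84, SE 0.14, adjusted p 0.0158).

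Apart from pqm-1, the factors did not differ between strains past the threshold. In pqm-1 worms against N2 the other 7 members had log2 fold changes of -0.28 to 0.15 after heat (lowest adjusted p 0.835) and of -0.06 to 0.17 at 20 °C (lowest adjusted p 0.511). Set against N2, in the daf-16 strain they lay between -0.66 and 0.20 after heat (lowest adjusted p 0.211) and between -0.19 and 0.16 at 20 °C (lowest adjusted p 0.249). The lowest of these, after heat, was elt-2. Both mutants were set against the same N2 libraries, so these values share their chance deviations. No tested gene passed for a difference in heat response between strains by edgeR, so the percentage called was 0.0 in all 3 such comparisons. Before adjustment, a p under 0.05 was reached by 1112 genes for pqm-1 minus N2, 2134 for daf-16 minus N2 and 931 for pqm-1 minus daf-16, and DESeq2 called 8, 62 and 12. Of the members, atfs-1 and skn-1 were under an unadjusted p of 0.05, both for daf-16 minus N2.

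Other listed stress transcription factors gave a wider view of the class. Of 38 tested, 6 rose and 4 fell with heat in the pqm-1 strain, 12 rose and 7 fell in the daf-16 strain, and 8 rose and 6 fell in N2, where 25.2%, 33.1% and 34.7% of all genes were called. The number called was 2 to 4 in the pqm-1 strain on leaving out any of its 4 libraries and 17 with only the groups compared. It was 8 without the heated daf-16 replicate 2, 10 without the 20 °C daf-16 replicate 3 and 11 with only the groups compared in the daf-16 strain, and 9 in N2 without its 20 °C replicate 2. pha-4, a FOXA factor of the foregut and intestine, rose by 0.52, 0.78 and 0.67, nhr-25 by 0.81, 0.61 and 0.83, and the AP-1 gene jun-1 by 0.39, 0.53 and 0.51. mxl-3 and the nuclear receptor gene nhr-80 (-0.30, -0.53 and -0.46) fell in all 3 strains. daf-16 itself was not called for heat in the pqm-1 strain (-0.07), the daf-16 strain (-0.18) or N2 (0.15). In the daf-16 strain its group mean was 106.4 CPM at 20 °C and 93.8 CPM after heat. The N2 means were 96.8 and 107.2 CPM in the same order. A loss of daf-16 counts was therefore not seen in the strain that carries mu86, and the reason was not tested. Several of these factors sit on more than 1 list.

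**Figure D5:**
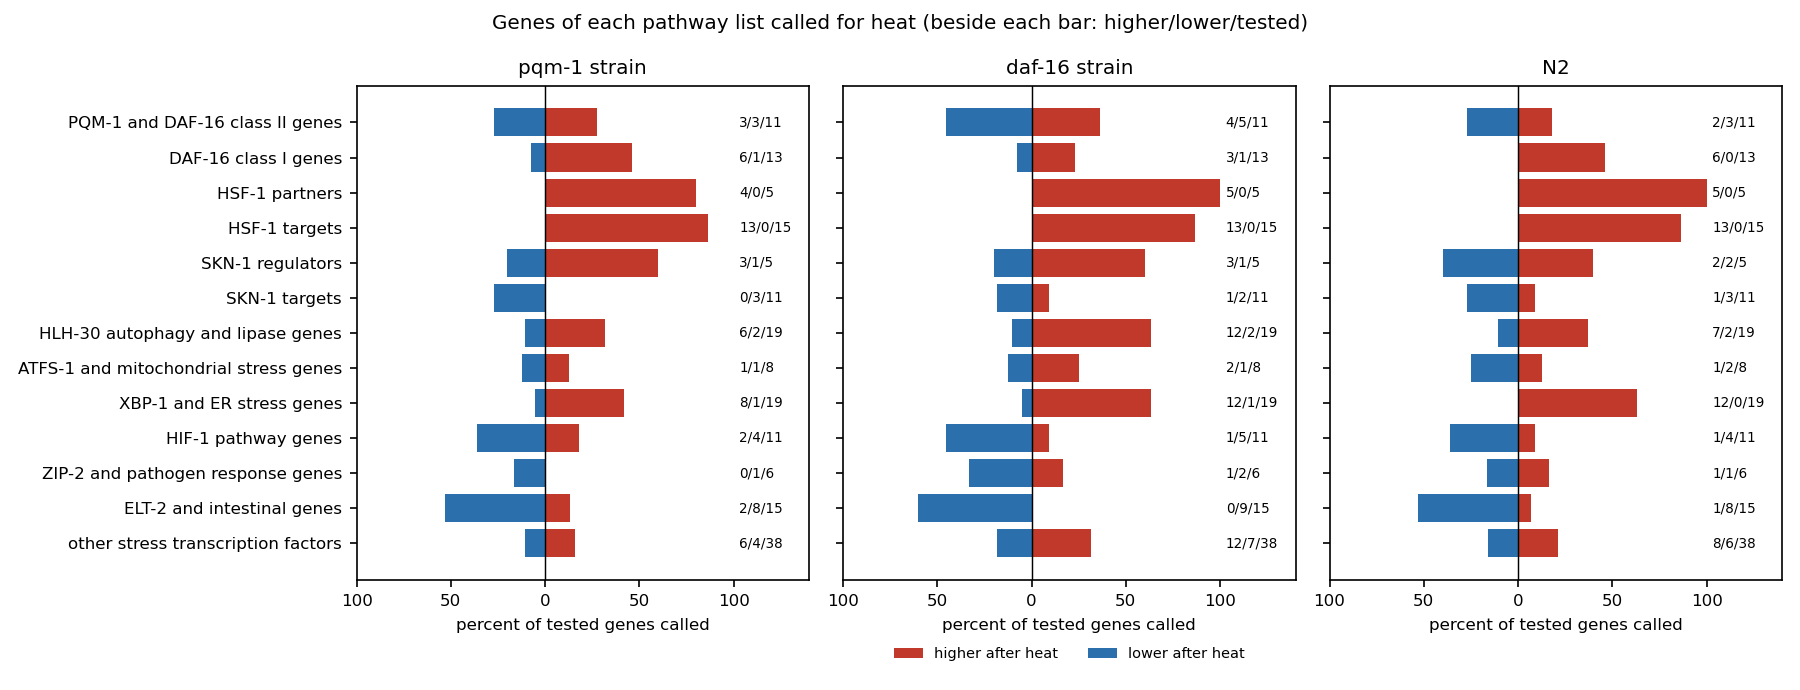
Percentage of the tested genes of each pathway list called for heat at an adjusted p under 0.05 (red, higher; blue, lower) in the pqm-1 strain, the daf-16 strain and N2, with counts of higher, lower and tested genes beside each bar. HSF-1 targets and partners, lists that share genes, are nearly all higher. Endoplasmic reticulum stress genes are more often higher than lower, and ELT-2 and intestinal genes more often lower than higher.

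The genes most like each factor over the 12 libraries were found by Pearson's r of log2 CPM among 14277 other tested genes, as a description without a test, since all libraries share the contrast of heat. hlh-30 was most like pha-4 (r = 0.979), R144.12 (0.973) and rho-1 (0.973). atfs-1 was most like acl-4 (0.974), C08F8.9 (0.964) and tomm-20 (0.963). hsf-1 was most like mcm-3 (0.970), pigv-1 (0.967) and lin-5 (0.964), and elt-2 like dhs-20 (0.951), D1054.23 (0.928) and dhs-7 (0.928). For hif-1 the nearest were atgp-2 (0.941), sym-1 (0.927) and eif-3.H (0.925), and for skn-1 rog-1 (0.928), Y53F4B.9 (0.895) and Y50D4B.6 (0.883). pqm-1 and xbp-1 had weaker nearest genes, fbxa-99 (0.899), slc-17.6 (0.898) and pho-9 (0.890) for pqm-1 and B0457.6 (0.879), Y51A2D.21 (0.876) and T20F10.2 (0.870) for xbp-1. Among the members themselves, hlh-30 and atfs-1 ran against each other most (r = -0.81 over the same 12 libraries), and hsf-1 and atfs-1 ran together most (0.70).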

How the data were processed

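RNA-seq of whole worms was deposited as 1 table of estimated counts per RefSeq transcript (13.3% of those above 0 have a decimal part). The aligner, counter and build are not given in the sources used here, so no coordinates are given. The first deposited value column, though named as a sample, gives lengths in bases and no counts: it matched the annotated coding length exactly for 96.3% of 12286 genes with 1 transcript. All 17 count columns keep their header names, and 12 were used. Of the rows, 45910 matched a RefSeq gene, and the other 4845 (23.4 to 24.3% of row totals) were left out.

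Counts were rounded and tested with edgeR 4.0.16 (R 4.3.3): TMM, filterByExpr, 1 dispersion estimate over 6 groups (6 residual degrees of freedom), 15 comparisons, Benjamini-Hochberg over 14278 genes, and the code was tested on simulated data. The members, the 13 lists and the use of replicates 2 and 3 were chosen with earlier results of these data known. Genes named were the members, their 3 most similar genes and, from each list, the called genes with the largest changes or those needed to say what a list holds. Replicates of a group differed beyond sampling noise (chi-square per degree of freedom 5.31 to 20.3). Non-whole counts occurred in 1 library for pqm-1, 3 for atfs-1, 2 for xbp-1 and 2 for elt-2. Alternatives included DESeq2 1.42.0, other scaling, no filter, a minimum mean count of 10, only the groups compared, a replicate block, all count columns by header name and leaving out each library. Figures were drawn with matplotlib 3.10.9.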

Additional observations from a re-analysis of the deposited data

Results flagged for a closer look

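The gene pqm-1 stood at 34.5 CPM, scaled to library size, in replicate 1 of the group labelled pqm-1 20 °C, a library that no comparison uses. This lies above the level in all 4 pqm-1 libraries used (9.92 to 21.5 CPM after TMM scaling) and above both N2 20 °C libraries used (26.1 and 24.1 CPM), so a signal appeared in data outside the comparisons. The strain of this library was not settled. If the header names stand 1 place too early, as described above, this column would hold a library of another group, which was not tested.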

How the results depend on the processing

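With all 17 count columns taken by header name, 0 genes were called for heat in each strain and on average, for the pqm-1 strain against N2 at either temperature, for the daf-16 strain against N2 at either temperature or averaged, and for pqm-1 against daf-16 at 20 °C; 3 were called for pqm-1 against N2 averaged and 6 for pqm-1 against daf-16 after heat. Where 0 were called, 234 to 1526 genes had an unadjusted p under 0.05. DESeq2 called 88 genes after heat and 102 at 20 °C for pqm-1 against N2, 59 for pqm-1 against daf-16 at 20 °C, and 8, 62 and 12 for the interactions pqm-1 minus N2, daf-16 minus N2 and pqm-1 minus daf-16. Without a filter these interactions gave 284, 792 and 199, pqm-1 against N2 gave 287 after heat, 550 at 20 °C and 491 averaged, daf-16 against N2 gave 1104, 1315 and 1485, and pqm-1 against daf-16 gave 779 and 214. With only the groups compared, the counts were 26 for pqm-1 against N2 at 20 °C, 25, 189 and 254 for daf-16 against N2 (after heat, at 20 °C, averaged), and 78 and 88 for pqm-1 against daf-16. Library size alone gave 237 genes for daf-16 against N2 after heat (52 higher, 185 lower, against 76 and 80 with TMM), and moved the split for heat to 2293 higher and 1463 lower in the pqm-1 strain and 3195 and 1974 in N2, against 1786 and 1805, and 2401 and 2549. The cause was not tested.

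Leaving out 1 library gave 2024 to 3926 genes for heat in the pqm-1 strain, 3058 to 4785 in the daf-16 strain, 3289 to 5259 in N2 and 6894 to 7681 on average. For pqm-1 against N2 it gave 14 to 69 after heat, 6 to 17 at 20 °C and 38 to 113 averaged; for daf-16 against N2, 34 to 382, 5 to 637 and 163 to 1111; for pqm-1 against daf-16, 44 to 250 and 15 to 49; for the interactions, 0 to 2, 0 to 75 and 0 to 1.

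Replicate numbers were not shown to pair samples: over 15 pairs of groups the correlation of same-numbered deviations was -0.212 to 0.22, with 1 over 0.1. A replicate block moved pqm-1 against N2 at 20 °C to 16 genes, with pqm-1 itself called (adjusted p 0.0408), lost atfs-1 for heat in the daf-16 strain (adjusted p 0.0561) and called elt-2 there (-0.65, adjusted p 0.0409).

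Of the values that turned sign, the one called in the main test was that of pqm-1 for heat in the pqm-1 strain. For heat in N2, hif-1 was 0.024 with library size alone and -0.12 to 0.0084 on leaving out 1 library (highest without its heated replicate 2), and elt-2 was -0.13 with all columns and -0.25 to 0.43 on leaving out 1 library (lowest without its heated replicate 3). For heat in the daf-16 strain, hsf-1 was -0.20 to 0.062 (highest without its heated replicate 2), and xbp-1 was -0.0044 without a filter and -0.26 to 0.27 (lowest without that replicate). With all columns, pqm-1 for heat in the pqm-1 strain was -0.11, and its interactions were -0.24 (pqm-1 minus N2) and -0.71 (pqm-1 minus daf-16). The last of these ranged from -0.26 to 0.35 on leaving out 1 library, and lay below 0 without replicate 3 of each pqm-1 and each daf-16 group. The calls of hlh-30 and atfs-1 for heat in N2 were lost with all columns alone (adjusted p 0.863 and 0.862).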

Other observations

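In the other 4 libraries labelled replicate 1, which no comparison uses, the CPM of pqm-1, scaled to library size, was 12.59 in that labelled pqm-1 35 °C, 26.3 in that labelled daf-16 35 °C, 26.3 in that labelled N2 35 °C and 32.9 in that labelled N2 20 °C. hlh-30 stood in these libraries at 52.1, 60.6, 57.6 and 80.4 CPM, with 78.1 CPM in the remaining library, labelled pqm-1 20 °C. atfs-1 stood at 66.6, 62.2, 74.7 and 51.5 CPM, with 53.9 CPM in that remaining library. Among these 5 libraries the ones labelled 20 °C thus held the highest hlh-30 and the lowest atfs-1, the reverse of the libraries used. With header names 1 place too early, each of these 5 columns would hold a library of another group. This was not tested.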
